A study of Mus musculus with 4 samples.

Results

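The genes described here encode 9 cell surface proteins by which mesenchymal stromal and progenitor cells are recognised: Thy1 (CD90), Eng (CD105), Nt5e (CD73), Vcam1 (CD106), Mcam (CD146), Alcam (CD166), Pdgfra, Pdgfrb and Cd9. They were chosen by name, as 9 of the 32285 genes in the count matrices. Their RNA was followed in 4 single-cell libraries and, within the 2 libraries that contained them, in muscle-like cells, defined as cells in which 38 sarcomeric genes gave at least 1% of all unique molecular identifiers (UMIs, each standing for 1 captured RNA molecule).

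Cultured human mesenchymal stromal cells are commonly defined by the joint presence of CD90, CD105 and CD73 and by the absence of blood cell antigens. The cells here are from mouse, and below this definition is not taken as a criterion for them. CD90 is a small lipid-anchored glycoprotein, CD105 is a co-receptor for ligands of the TGF-β family, and CD73 is an ectoenzyme that makes adenosine from AMP. The other members serve adhesion (Vcam1, Mcam, Alcam), PDGF signalling (Pdgfra, Pdgfrb) and the organisation of the membrane (the tetraspanin Cd9), and most of them are low in mature muscle fibres.

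The cells were C3H10T1/2, a mouse embryonic line of mesenchymal progenitor cells (MPC) that can form muscle and fat after brief exposure to 5-Azacitidine (5-Aza), which blocks DNA methyltransferases. All 4 libraries came from MPC that carried a lentiviral, epitope-tagged human histone H3 transgene under an EF1 promoter in addition to their own H3 genes, either wild type (H3WT) or with arginine 26 replaced by cysteine (H3R26C), after puromycin selection. Cells of each genotype received DMSO as vehicle or 5-Aza at 3 µM for 24 h, and the 5-Aza cultures were collected on day 28. The day on which the DMSO cultures were collected is not given in the sources used here, so equal time in culture cannot be assumed. Each of the 4 conditions has 1 library, so no difference has a replicate check, no p-value is given, and all 95% intervals cover counting error only. The human transgene is not among the mouse genes counted, so the genotype could not be checked here.

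Cells were kept with at least 5000 UMIs, at least 1500 genes and at most 20% mitochondrial (mt-) UMIs, which left 3710 of 6239 barcodes for H3WT DMSO, 5993 of 15002 for H3WT 5-Aza, 4727 of 6540 for H3R26C DMSO and 7619 of 12110 for H3R26C 5-Aza. Kept cells held from 84060490 to 110712425 UMIs per library, with median UMIs per cell from 13123 (H3R26C 5-Aza) to 22420 (H3WT DMSO). Between 1.90% and 2.54% of the kept barcodes of a library also occurred among the kept cells of another. All 8 genes of a mesenchymal matrix list (among them Col1a1, Fn1 and Vim) were above 1 CPM in every library. Of 10 blood and endothelial genes, between 6 and 9 were under 1 CPM. The label of mesenchymal surface markers holds less well for Nt5e and Mcam, which were at or near 1 CPM or lower in all 4 libraries.

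Levels are given in CPM, which put a gene's UMIs relative to all UMIs of the library or of the cells named. UMIs per cell differed between the libraries, and shares of cells with a UMI were therefore taken after thinning each cell to 5000 UMIs. At this depth a cell without a UMI may still have expressed the gene, and free RNA can give a UMI to a cell that does not. In the cells richest in sarcomeric RNA (5% to 20% of UMIs), a thinned Pdgfra UMI was found in 5 of 100 cells in H3WT 5-Aza and 4 of 123 in H3R26C 5-Aza, at median depths of 12553.5 and 17335 UMIs, and whether these came from free RNA was not tested.

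Thy1 separated the 2 genotypes. Its level was 110.0 CPM in H3WT DMSO, 122.8 CPM in H3WT 5-Aza, 37.6 CPM in H3R26C DMSO and 50.5 CPM in H3R26C 5-Aza. Both H3R26C libraries were below both H3WT libraries. The H3R26C level was 0.342 of the H3WT level with DMSO (interval 0.328 to 0.356) and 0.411 with 5-Aza (0.398 to 0.425), and Thy1 ranked 15 of 12052 genes tested from the lowest log2 ratio with DMSO and 160 of 12669 with 5-Aza. Among genes tested, 0.589% were lower by 2-fold or more in H3R26C with DMSO and 2.64% with 5-Aza.

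The lower Thy1 level went with fewer cells with a UMI. A UMI was found in 33.6% of thinned cells in H3WT DMSO, 33.6% in H3WT 5-Aza, 12.5% in H3R26C DMSO and 16.1% in H3R26C 5-Aza. Cells that had one held 1.53, 1.76, 1.42 and 1.53 UMIs on average, in the same order. Thy1 was also uneven among cells: in cells with at least 20000 UMIs, not thinned, 70.5% of H3WT DMSO cells and 33.9% of H3R26C DMSO cells had a UMI, where an even spread of the same mean would give 96.4% and 69.0%. The tenth of cells with most Thy1 held 42.4% of its UMIs in H3WT DMSO and 68.9% in H3R26C DMSO, without thinning. Such a share also rises as a gene has fewer UMIs per cell. For Eng, lower in H3WT DMSO, it was 86.4% there and 68.3% in H3R26C DMSO. The Thy1 values therefore do not show that Thy1 was more concentrated in H3R26C cells.

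Eng went the other way between genotypes. Its level was 5.68 CPM in H3WT DMSO, 6.19 CPM in H3WT 5-Aza, 10.6 CPM in H3R26C DMSO and 14.8 CPM in H3R26C 5-Aza, so that both H3R26C libraries stood above both H3WT libraries. The H3R26C level was 1.87 times the H3WT level with DMSO (1.68 to 2.09) and 2.39 times with 5-Aza (2.17 to 2.65). With 5-Aza this is a log2 ratio of 1.14, past 2-fold, in a comparison where 4.79% of genes were higher by as much. With a pseudocount of 10 CPM in place of 1 CPM it was 0.62, within 2-fold. The share of thinned cells with an Eng UMI was 2.08%, 2.89%, 5.39% and 7.18% in the same order. Mir1954 and 2 predicted genes on the same strand and Fpgs on the other overlap Eng in the annotation, and how reads there were assigned is not given in the sources used here.

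Of 8 tested genes that work with endoglin in TGF-β and BMP signalling, 1 was higher and none lower by 2-fold or more after 5-Aza in H3WT. In H3R26C 2 were higher and 1 lower. Of all genes tested, 4.26% were higher and 0.276% lower in H3WT, and 8.04% were higher and 3.09% lower in H3R26C. With so few genes, a difference from these shares was not tested. The 1 endoglin partner higher in both genotypes was Acvrl1, the type I receptor ALK1 that signals with endoglin. It was at 1.89 CPM in H3WT DMSO, 4.90 CPM in H3WT 5-Aza, 1.64 CPM in H3R26C DMSO and 12.2 CPM in H3R26C 5-Aza. Tgfb1, a ligand, was at 15.1 CPM in H3R26C DMSO and 35.8 CPM in H3R26C 5-Aza, while Tgfb2, another ligand, was at 83.1 CPM and 39.2 CPM.

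Nt5e, the ectoenzyme of the classical triad, was close to absent as RNA. No UMI was found in H3WT DMSO or H3R26C DMSO, 3 UMIs were found in H3WT 5-Aza and 41 UMIs in H3R26C 5-Aza, in 3 and 39 cells. These are 0.0356 CPM and 0.370 CPM. Both DMSO libraries were at 0, which by a floor of 3 cells allows a UMI in up to 0.0809% of H3WT DMSO cells and 0.0635% of H3R26C DMSO cells (exact binomial upper limits 0.0994% and 0.0780%). These limit cells with a UMI, not cells that express the gene. Set against a floor of 3 counts in H3R26C DMSO, the H3R26C 5-Aza level was at least 10.4-fold higher, a value that leaves out the counting error of the 41 UMIs. The conditional exact lower limit of that ratio was 8.06. Against the 3 UMIs of H3WT 5-Aza it was 10.4-fold, with an interval from 3.32 to 52.6. Nt5e did not reach the mean of 1 CPM needed to enter the counts of genes past 2-fold.

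The promoter of Nt5e is shown because the gene was at 0 in both libraries without 5-Aza, and that of Alcam because it had the widest change of the members after 5-Aza. Both are RefSeq sequences of build GRCm38.p6, from 250 bases before to 50 bases after the annotated start, and capitals mark each CG, the dinucleotide that DNA methyltransferases act on. The Nt5e window is chr9:88327359-88327658 on the plus strand and the Alcam window is chr16:52453032-52453331 on the minus strand.
Nt5e: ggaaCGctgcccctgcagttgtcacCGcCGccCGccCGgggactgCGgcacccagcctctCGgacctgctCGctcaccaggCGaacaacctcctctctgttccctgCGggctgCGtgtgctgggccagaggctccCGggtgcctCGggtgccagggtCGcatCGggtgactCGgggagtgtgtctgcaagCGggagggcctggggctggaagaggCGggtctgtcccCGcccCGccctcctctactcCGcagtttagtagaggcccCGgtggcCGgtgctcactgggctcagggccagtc
Alcam: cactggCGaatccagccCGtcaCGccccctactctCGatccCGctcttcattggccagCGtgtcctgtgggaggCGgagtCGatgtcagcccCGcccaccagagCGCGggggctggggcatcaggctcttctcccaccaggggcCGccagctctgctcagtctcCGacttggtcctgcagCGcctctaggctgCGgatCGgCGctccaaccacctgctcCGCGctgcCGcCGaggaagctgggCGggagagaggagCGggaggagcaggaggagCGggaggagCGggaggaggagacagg
The Nt5e window held 23 CG and the Alcam window 25 CG, against a median of 7 CG over the 32851 promoters of the same table. As many as 21.5% of all promoters held at least as many as Nt5e, and 18.4% at least as many as Alcam. Of the other members found in that table, Mcam had 29 CG, Cd9 18, Eng 6 and Pdgfra 5, and Thy1, Vcam1 and Pdgfrb have no entry. The RefSeq start used for Alcam lies 993 bases inside the outer end of the gene in GENCODE M21, and that used for Nt5e lies 412 bases inside the gene's start there, so that both windows fall within the GENCODE genes. DNA methylation was not measured in these libraries.

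Cells with UMIs of Thy1, Eng and Nt5e together were limited by the few UMIs of Nt5e. After thinning, all 3 had a UMI in 0 of 3710 cells in H3WT DMSO, 0 of 5993 in H3WT 5-Aza, 0 of 4727 in H3R26C DMSO and 1 of 7619 in H3R26C 5-Aza. Without thinning the last became 4 cells, or 0.0525% (0.0143% to 0.134%). The product of the 3 single shares in H3R26C 5-Aza was 0.00242% thinned and 0.0246% not thinned. None of the 3 had a UMI in 65.2%, 64.5%, 82.9% and 77.9% of thinned cells, in the order of the libraries above.

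Around Nt5e, 8 genes of extracellular nucleotide and adenosine handling were listed, of which 4 or fewer could be tested in each library comparison. Enpp1, an ectoenzyme that cuts nucleotides outside the cell, was at 10.4 CPM in H3WT DMSO, 20.3 CPM in H3WT 5-Aza, 11.6 CPM in H3R26C DMSO and 60.4 CPM in H3R26C 5-Aza. No other gene tested from this list was past 2-fold in any of the library comparisons. Enpp1 was the 1 of 3 tested that was higher after 5-Aza in H3R26C, and the 1 of 4 between genotypes with 5-Aza. Of all genes tested, 8.04% and 4.79% were higher by as much there. With so few genes, a difference from these shares was not tested.

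**Figure D1:**
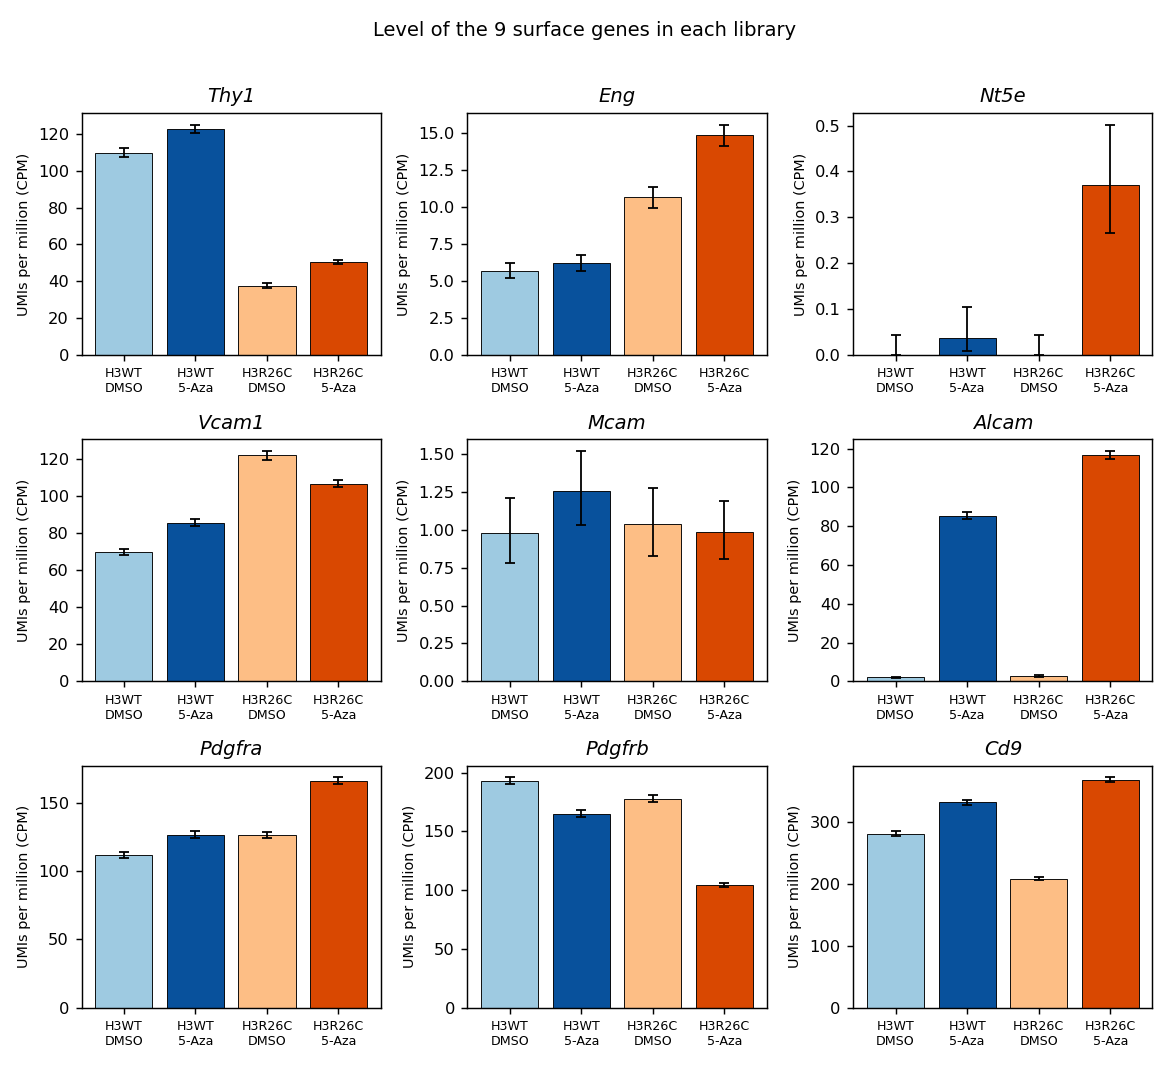
Level of each surface gene in CPM (vertical axis, its own scale for each gene, from 0) in the 4 libraries (bars), with exact Poisson 95% intervals that cover counting error only. Alcam is near 0 with DMSO and at 85.5 CPM and 116.8 CPM with 5-Aza, and Thy1 is lower in both H3R26C libraries than in both H3WT libraries.

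Alcam, an adhesion protein that binds itself and CD6, was far higher with 5-Aza. Its level was 2.01 CPM in H3WT DMSO, 85.5 CPM in H3WT 5-Aza, 2.61 CPM in H3R26C DMSO and 116.8 CPM in H3R26C 5-Aza. Both 5-Aza libraries were far above both DMSO libraries. The ratio was 42.5 in H3WT (36.5 to 49.6) and 44.8 in H3R26C (39.2 to 51.5), and with a pseudocount of 1 CPM the log2 ratios were 4.84 and 5.03. The gene ranked 22 of 12306 tested genes in H3WT and 33 of 12551 in H3R26C from the highest. The difference between those log2 ratios, H3R26C minus H3WT, was 0.19 with a counting interval from -0.10 to 0.48.

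The gain in Alcam was spread over many cells, though not evenly. The share of thinned cells with a UMI was 0.782% in H3WT DMSO, 28.7% in H3WT 5-Aza, 1.08% in H3R26C DMSO and 38.6% in H3R26C 5-Aza. Among cells with at least 20000 UMIs, not thinned, it was 65.9% in H3WT 5-Aza and 80.7% in H3R26C 5-Aza. An even spread of the same mean would give 86.9% and 93.7%. With DMSO its level was higher in dividing cells, taken as cells with at least 3 thinned UMIs of 10 mitotic genes. The level in those cells was 3.16 times that of the rest in H3WT DMSO (2.07 to 4.68) and 4.07 times in H3R26C DMSO (3.06 to 5.38), and with 5-Aza it was 1.13 and 1.07 times. Most Alcam UMIs with DMSO still came from other cells. Dividing cells held 17.7% of them in H3WT DMSO and 37.9% in H3R26C DMSO, against 6.39% and 13.1% of all UMIs. In H3WT DMSO the highest cell held 15 of the 175 Alcam UMIs, an unevenness that the counting interval does not cover.

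Vcam1, an endothelial and stromal ligand of integrins, was at 69.7 CPM in H3WT DMSO, 85.6 CPM in H3WT 5-Aza, 122.0 CPM in H3R26C DMSO and 106.7 CPM in H3R26C 5-Aza. Both H3R26C libraries were above both H3WT libraries. Its ratio of H3R26C to H3WT was 1.75 with DMSO (1.70 to 1.81) and 1.25 with 5-Aza (1.21 to 1.28). With 5-Aza it was higher than with DMSO in H3WT (1.23 times, 1.19 to 1.27) and lower in H3R26C (0.875 times, 0.852 to 0.898). The share of thinned cells with a UMI followed the level, at 25.7%, 29.8%, 40.2% and 37.4%.

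Mcam, an adhesion protein of pericytes and endothelium, was at 0.978 CPM in H3WT DMSO, 1.26 CPM in H3WT 5-Aza, 1.04 CPM in H3R26C DMSO and 0.985 CPM in H3R26C 5-Aza, from 85 to 109 UMIs per library. The counting intervals of all 4 overlapped. In the small sets of cells with RNA of at least 3 adipocyte genes the Mcam level was 8.47 times that of all cells that were not muscle-like in H3WT 5-Aza (4.10 to 15.8, from 11 UMIs in 66 cells) and 19.0 times in H3R26C 5-Aza (8.01 to 38.9, from 8 UMIs in 28 cells). Thy1 was lower in the same sets, at 0.414 and 0.410 of that level. Also lower in both were Vcam1 (0.548 and 0.626), Pdgfra (0.485 and 0.621), Pdgfrb (0.604 and 0.527) and Cd9 (0.597 and 0.551). For Eng and Alcam the interval included 1 in at least 1 of the sets, and Nt5e, from 2 UMIs in each, was higher. These sets are part of the cells they were set against, which in H3WT 5-Aza held 3 Nt5e UMIs in all. The intervals treat the 2 sides as separate counts and are approximate. The share of all genes lower in these sets was not counted.

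Of 10 listed ligands and partners of the adhesion proteins, Thy1 and Cd9, the defining integrin subunit of the Vcam1 receptor, Itga4, was at 0.325 CPM or less in every library, and Cd6, the ligand of Alcam on lymphocytes, at 0.0452 CPM or less. None of the 6 tested was past 2-fold after 5-Aza in H3WT. In H3R26C 1 of 7 was higher, Itgb7, at 1.04 CPM with DMSO and 3.29 CPM with 5-Aza. Another was lower, the Mcam ligand chain Lama4, at 231.4 CPM and 99.9 CPM. Of all genes tested in H3R26C, 8.04% were higher and 3.09% lower.

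The PDGF receptors, receptor tyrosine kinases of mesenchymal growth, differed in opposite directions between DMSO and 5-Aza, by less than 2-fold. Pdgfra was at 111.5 CPM in H3WT DMSO, 126.6 CPM in H3WT 5-Aza, 126.4 CPM in H3R26C DMSO and 166.1 CPM in H3R26C 5-Aza. Pdgfrb was at 192.9 CPM, 165.0 CPM, 177.8 CPM and 104.4 CPM in the same order. The H3R26C 5-Aza library was therefore the highest of the 4 for Pdgfra and the lowest for Pdgfrb. After 5-Aza, the Pdgfra ratio was 1.14 in H3WT (1.11 to 1.17) and 1.31 in H3R26C (1.28 to 1.35), and the Pdgfrb ratio was 0.856 in H3WT (0.837 to 0.875) and 0.587 in H3R26C (0.573 to 0.602).

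The Pdgfra level of H3R26C 5-Aza was highest in cells with Enpp2, the gene of the secreted phospholipase autotaxin. In the 821 cells with at least 3 thinned UMIs of Enpp2, the Pdgfra level was 412.5 CPM, and in the remaining 6798 cells it was 139.3 CPM, a ratio of 2.96 (2.86 to 3.06). The same ratio was 1.27 in H3WT 5-Aza, 1.01 in H3WT DMSO and 1.02 in H3R26C DMSO. Without those cells the log2 ratio of Pdgfra after 5-Aza in H3R26C fell from 0.39 to 0.14, and between genotypes with 5-Aza from 0.39 to 0.15, while Pdgfrb kept values of -0.75 and -0.64. Pdgfrb itself did not follow Enpp2, with a ratio of 0.943 in H3R26C 5-Aza.

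Both receptors were at lower CPM in dividing cells than in the other cells of every library. The Pdgfra ratio of dividing to other cells was 0.673 in H3WT DMSO, 0.607 in H3WT 5-Aza, 0.794 in H3R26C DMSO and 0.476 in H3R26C 5-Aza, and the Pdgfrb ratio was 0.595, 0.597, 0.533 and 0.492. Dividing cells also held more UMIs. Their medians were 34724, 18960.5, 27693 and 19295 in that order, against 22169, 12916, 16255.5 and 12501 in the rest. CPM are relative to all UMIs of the cells, and levels per cell were not compared. The share of all genes lower in dividing cells was not counted. Dividing cells numbered 156 of 3710, 432 of 5993, 401 of 4727 and 1291 of 7619 in that order. Without them the log2 ratio of Pdgfrb after 5-Aza was -0.20 in H3WT and -0.68 in H3R26C, against -0.22 and -0.76 in all cells. Of all pairs of members, Pdgfra and Pdgfrb had the highest correlation across cells that were not muscle-like, with a mean Pearson r over the 4 libraries of only 0.09, which is too weak in sparse counts to be a finding.

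**Figure D2:**
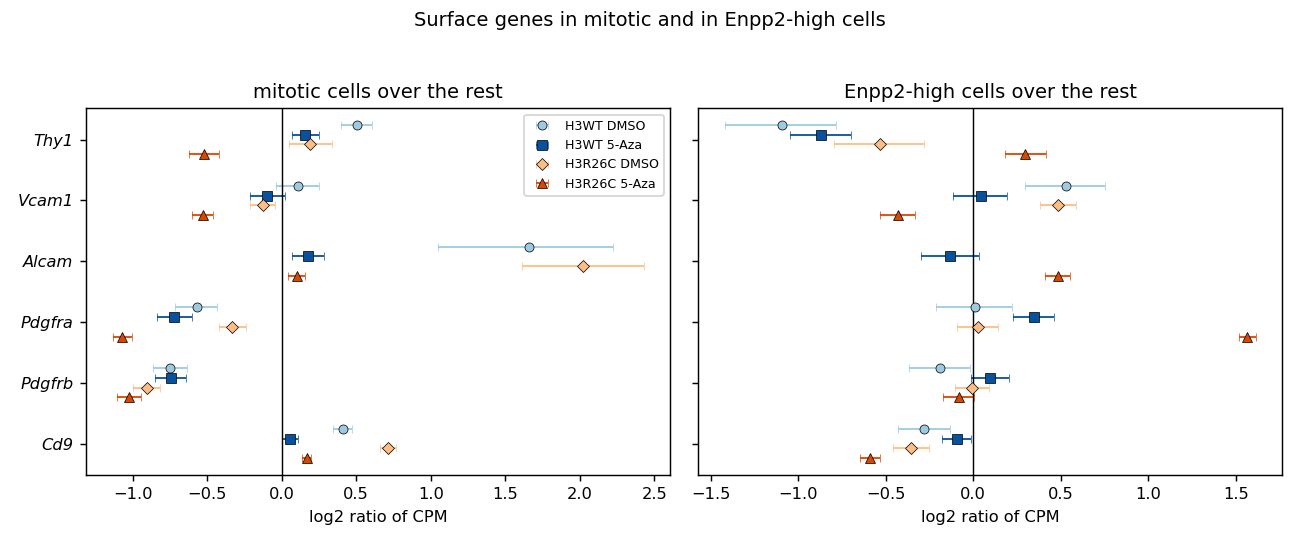
Log2 ratio of CPM without a pseudocount (horizontal axis) between dividing cells and the rest (left) and between Enpp2-high cells and the rest (right) for 6 surface genes in the 4 libraries, with conditional exact 95% intervals and ratios from under 20 UMIs left out. Pdgfra and Pdgfrb lie left of 0 in dividing cells of all 4 libraries, and Pdgfra in Enpp2-high cells of H3R26C 5-Aza stands apart at a ratio of 2.96 before the log.

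The 4 PDGF ligands were followed beside their receptors. Pdgfc, a ligand of the alpha receptor, was at 0.299 CPM in H3WT DMSO, 2.15 CPM in H3WT 5-Aza, 0.274 CPM in H3R26C DMSO and 6.78 CPM in H3R26C 5-Aza. It was the only 1 of the 4 ligands past 2-fold after 5-Aza in either genotype. Being under 1 CPM in both DMSO libraries, Pdgfc reached the mean of 1 CPM needed for testing only through its 5-Aza level. Its place among the genes called is therefore not independent of its being higher. Of all genes tested, 4.26% were higher by as much in H3WT and 8.04% in H3R26C. Pdgfd, a ligand of the beta receptor, was at 12.2 CPM, 11.7 CPM, 10.2 CPM and 4.84 CPM in the same order. With 5-Aza, Pdgfc was higher and Pdgfd lower by 2-fold or more in H3R26C than in H3WT. Of all genes tested there, 4.79% were higher and 2.64% lower. With so few ligands, a difference from these shares was not tested.

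Cd9, a tetraspanin, was at 281.5 CPM in H3WT DMSO, 332.1 CPM in H3WT 5-Aza, 208.9 CPM in H3R26C DMSO and 368.7 CPM in H3R26C 5-Aza. Both 5-Aza libraries were above both DMSO libraries. The ratio after 5-Aza was 1.18 in H3WT (1.16 to 1.20) and 1.76 in H3R26C (1.73 to 1.80), within 2-fold in both. H3R26C was below H3WT with DMSO (0.742 times, 0.728 to 0.757) and above it with 5-Aza (1.11 times, 1.09 to 1.13). Cd9 also had the highest correlations of the members with other genes. Across cells that were not muscle-like, its mean Pearson r over the 4 libraries was 0.22 with Anxa2, 0.21 with Vim and 0.20 with S100a6, on thinned counts of 6428 genes. For no other member did a gene reach the mean r of 0.2 set for naming, and the highest was 0.18, for Pdgfrb. Cd9 had the highest level of the members in every library, and sparse counts lower r. The part of its level in these correlations was not tested.

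**Figure D3:**
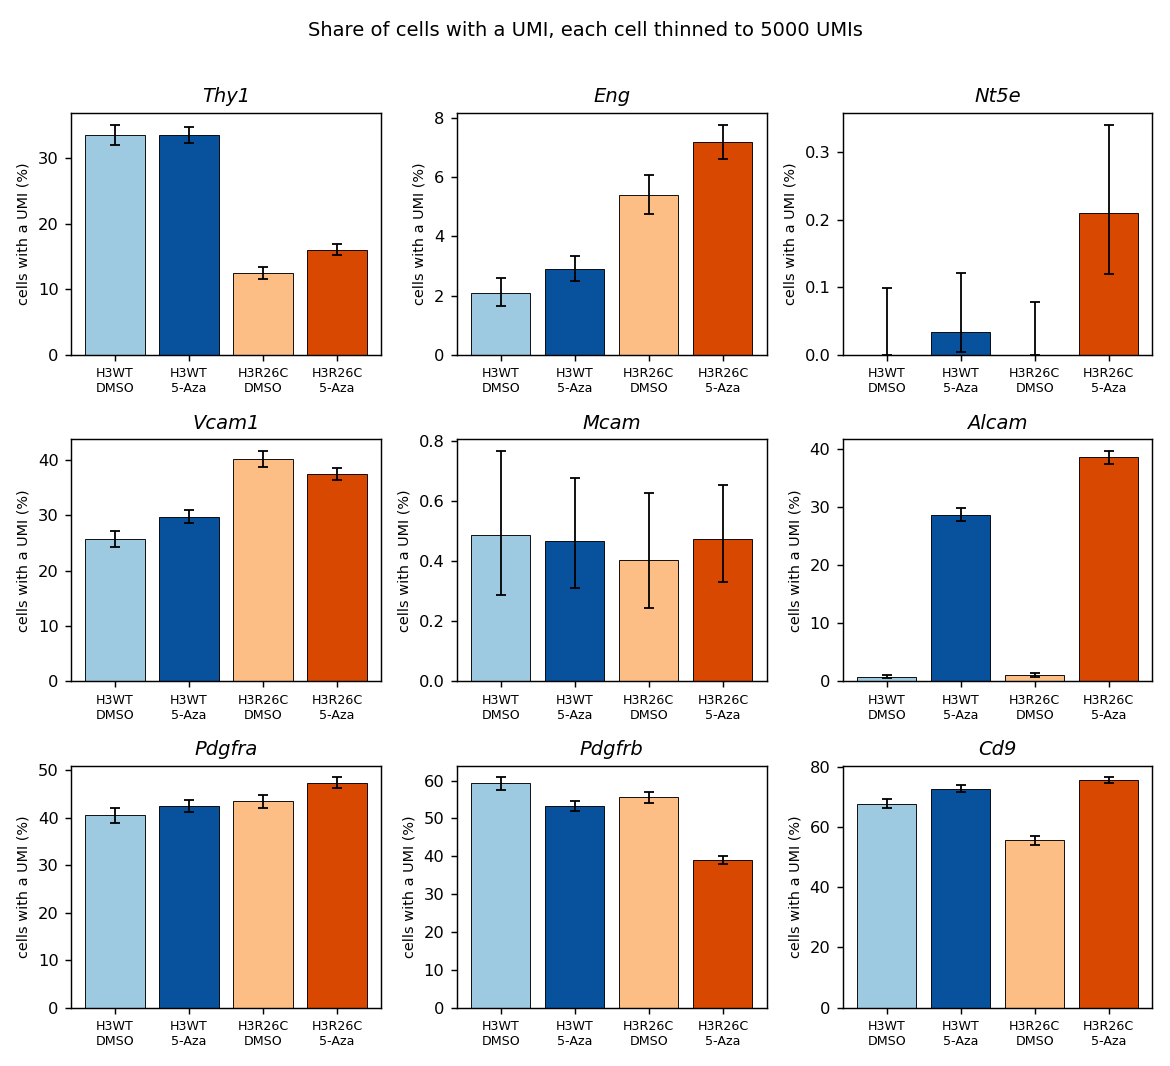
Share of cells with at least 1 UMI of each surface gene, in percent (vertical axis, own scale for each gene), in the 4 libraries after thinning every cell to 5000 UMIs, with exact binomial 95% intervals. Alcam rises from 0.782% to 28.7% in H3WT and from 1.08% to 38.6% in H3R26C, and Thy1 stands at 33.6% in both H3WT libraries.

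Over the 8 members at or above a mean of 1 CPM, 1 was higher and none lower by 2-fold or more after 5-Aza in each genotype, and in both it was Alcam. In all genes tested, 4.26% were higher and 0.276% lower in H3WT, and 8.04% were higher and 3.09% lower in H3R26C. The median log2 ratio of the members was 0.19 in H3WT and 0.40 in H3R26C, against 0.04 and -0.03 for all genes. Between genotypes, none was higher and 1 lower (Thy1) with DMSO, where 1.82% of genes were higher and 0.589% lower. With 5-Aza 1 was higher (Eng) and 1 lower (Thy1), where 4.79% of genes were higher and 2.64% lower. The members' medians were 0.11 and 0.23, against 0.03 and -0.03. The 4 comparisons share libraries, so they are not independent of each other.

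Other gene groups moved between the same libraries. Between H3R26C and H3WT with 5-Aza, 10 of 11 tested interferon-stimulated genes were higher and 6 of 8 immediate early genes, which can also mark dissociation, were lower by 2-fold or more, 3 of 10 mitotic genes were higher and 4 of 8 adipocyte genes were lower. With DMSO, 3 of 10 mitotic and 4 of 7 adipocyte genes were higher, 3 of 8 immediate early genes were lower and 1 of 10 interferon-stimulated genes was higher. Of all genes tested, 4.79% were higher and 2.64% lower with 5-Aza, and 1.82% were higher and 0.589% lower with DMSO. The part of any of these gene groups in the values of the surface genes was not tested. Of 16 further surface genes of mesenchymal cells, 9 to 11 could be tested. After 5-Aza none of 9 was past 2-fold in H3WT, and 3 of 11 were higher and 1 lower in H3R26C. Of all genes tested, 4.26% were higher and 0.276% lower in H3WT, and 8.04% and 3.09% in H3R26C. Between genotypes, 1 of 10 was higher with DMSO and 3 of 11 with 5-Aza, and none was lower. With so few genes, a difference from the shares of all genes was not tested. Ngfr, a neurotrophin receptor, was at 1.38 CPM in H3WT DMSO, 0.450 CPM in H3WT 5-Aza, 13.8 CPM in H3R26C DMSO and 2.80 CPM in H3R26C 5-Aza. Cd200, an immune regulatory glycoprotein, was at 0 CPM, 0.711 CPM, 0.0476 CPM and 14.9 CPM.

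**Figure D4:**
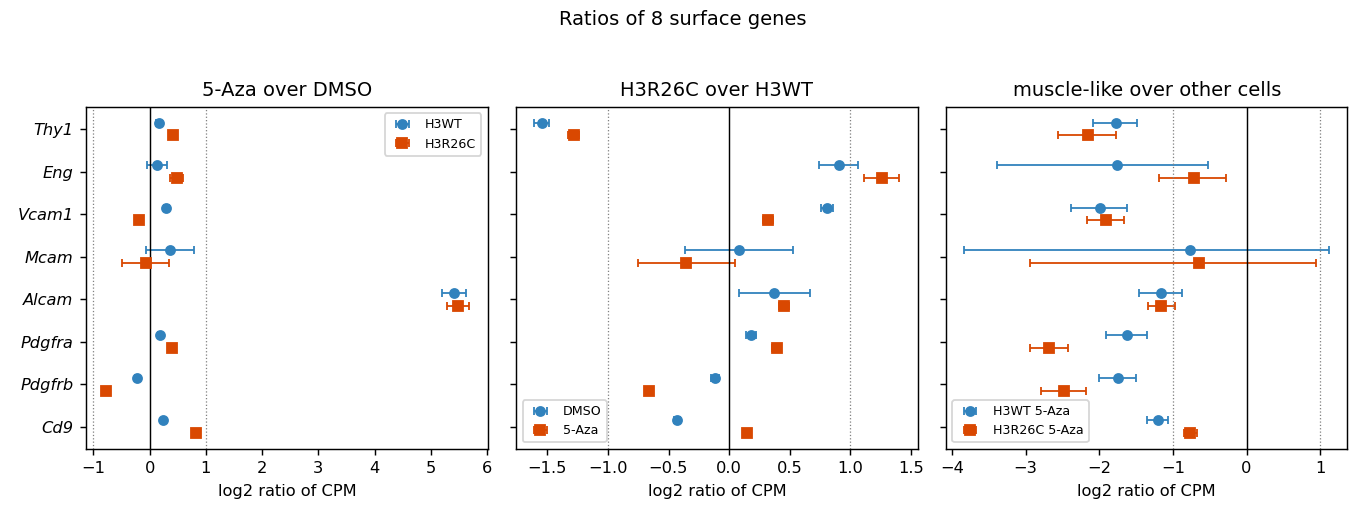
Log2 ratio of CPM without a pseudocount (horizontal axis, dotted lines at 2-fold) for 8 surface genes after 5-Aza (left), between genotypes (middle) and in muscle-like against other cells (right), with conditional exact 95% intervals that cover counting error only. Alcam lies alone past 2-fold on the left, and all values in the right panel lie below 0.

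Muscle-like cells had lower CPM of most of these genes than the other cells of their library. They numbered 172 of 5993 kept cells in H3WT 5-Aza (2.87%) and 232 of 7619 in H3R26C 5-Aza (3.05%), and none was found with DMSO, where the highest share of sarcomeric RNA in a cell was 0.0628%. All 17 muscle genes that were not used for the gate, such as Myog and Ckm, were higher in them by 2-fold or more in both libraries. Median UMIs were 13265 in the muscle-like cells of H3WT 5-Aza and 18362.5 in those of H3R26C 5-Aza, against 13148 and 13057 in the rest.

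Of 8 members tested in H3WT 5-Aza, 7 were lower in muscle-like cells by 2-fold or more, where 15.3% of all genes were, and none was higher (9.9% of all genes). Thy1 was at 36.7 CPM in muscle-like and 125.6 CPM in other cells, Vcam1 at 22.1 CPM and 87.7 CPM, and Alcam at 38.9 CPM and 87.1 CPM. Pdgfra was at 41.9 CPM and 129.4 CPM, Pdgfrb at 50.2 CPM and 168.8 CPM, and Cd9 at 146.7 CPM and 338.2 CPM. Eng was at 1.87 CPM, from 5 UMIs, and 6.33 CPM. Only Mcam was within 2-fold, from 2 UMIs in muscle-like cells. With the gate at 0.5% of sarcomeric RNA the count was 4 of 8, and Eng, Alcam and Cd9 were no longer past 2-fold. The median log2 ratio of the members was -1.48, against -0.22 for all genes.

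In H3R26C 5-Aza, 5 of 7 members tested were lower by 2-fold or more, where 19% of all genes were, and none was higher (8.05% of all genes). Thy1 was at 11.7 CPM in muscle-like and 52.2 CPM in other cells, Vcam1 at 29.3 CPM and 110.1 CPM, Alcam at 53.6 CPM and 119.6 CPM, Pdgfra at 26.9 CPM and 172.3 CPM, and Pdgfrb at 19.4 CPM and 108.2 CPM. Cd9 was at 221.2 CPM and 375.2 CPM, a ratio of 0.590 (0.554 to 0.627), and Eng at 9.18 CPM and 15.1 CPM, a ratio of 0.610 (0.439 to 0.825), both within 2-fold. Without the cells above the 90th percentile of UMIs of the library, their log2 ratios went from -0.76 to -1.14 for Cd9 and from -0.66 to -1.25 for Eng, past 2-fold. Alcam could move the other way. Its weakest log2 ratio under the alternative processing choices was -0.882, within 2-fold, so the count of 5 depends on these choices. Thy1, Vcam1, Pdgfra and Pdgfrb stayed past 2-fold under all of them. The median of the members was -1.88, against -0.30 for all genes.

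Pdgfra, Pdgfrb, Thy1 and Vcam1 were lower in the cells richest in sarcomeric RNA than over all muscle-like cells. Eng was not in H3R26C 5-Aza, at 10.6 CPM (from 25 UMIs) against 9.18 CPM. Nor did Pdgfra and Pdgfrb fall between cells under 0.1% of sarcomeric RNA and cells with 0.1% to 1%. Pdgfra was at 128.6 CPM and 134.2 CPM in H3WT 5-Aza and at 170.6 CPM and 183.7 CPM in H3R26C 5-Aza. Pdgfrb was at 167.5 CPM and 176.4 CPM, and at 106.6 CPM and 119.1 CPM. The bin of 0.1% to 1% held 939 cells in H3WT 5-Aza and 1190 in H3R26C 5-Aza. Their median depths were 11154 and 10310 UMIs, against 13498 and 13575 in cells under 0.1%. Whether the sarcomeric UMIs of this bin came from free RNA was not tested. Cells with 5% to 20% of sarcomeric RNA numbered 100 in H3WT 5-Aza and 123 in H3R26C 5-Aza, and their levels were set against cells under 0.1%. Pdgfra was at 5.22% of that level in H3WT 5-Aza and 4.70% in H3R26C 5-Aza, Pdgfrb at 6.01% and 6.34%, Thy1 at 7.27% and 12.6%, and Vcam1 at 9.95% and 14.1%. For the receptors these percentages have counting intervals that reach 9.60% for Pdgfra and 9.91% for Pdgfrb in H3WT 5-Aza. Before thinning, 9 of 100 and 14 of 123 of these cells had a Pdgfra UMI, and 11 and 13 had a Pdgfrb UMI.

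For Alcam and Cd9 the 2 libraries differed in the highest bin, and for Cd9 also over all muscle-like cells. Over all muscle-like cells, Alcam was at 0.447 of the level in other cells in H3WT 5-Aza and 0.448 in H3R26C 5-Aza. Cd9 was at 0.434 (0.392 to 0.479) and 0.590 (0.554 to 0.627) in the same order. In cells with 1% to 5% of sarcomeric RNA, Alcam was at 75.9 CPM and 66.3 CPM, and Cd9 at 222.6 CPM and 231.1 CPM, where cells under 0.1% had 87.5 CPM and 119.5 CPM of Alcam and 342.6 CPM and 380.8 CPM of Cd9. In cells with 5% to 20%, Alcam was at 11.5% of the low-sarcomeric level in H3WT 5-Aza (6.43% to 19.0%) and 34.6% in H3R26C 5-Aza (28.1% to 42.3%), and Cd9 at 25.7% (21.4% to 30.5%) and 55.8% (51.0% to 60.9%). Cells with an Alcam UMI numbered 13 of 100 and 52 of 123, before thinning. Eng was at 21.7% (from 2 UMIs) and 69.6% (44.9% to 103.2%). There is 1 library per genotype and the muscle-like cells of H3R26C 5-Aza held more UMIs, so a difference of genotype and one of library or depth cannot be told apart here. Leaving sarcomeric UMIs out of the totals gave 12.8% and 38.0% for Alcam and 28.6% and 61.3% for Cd9.

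**Figure D5:**
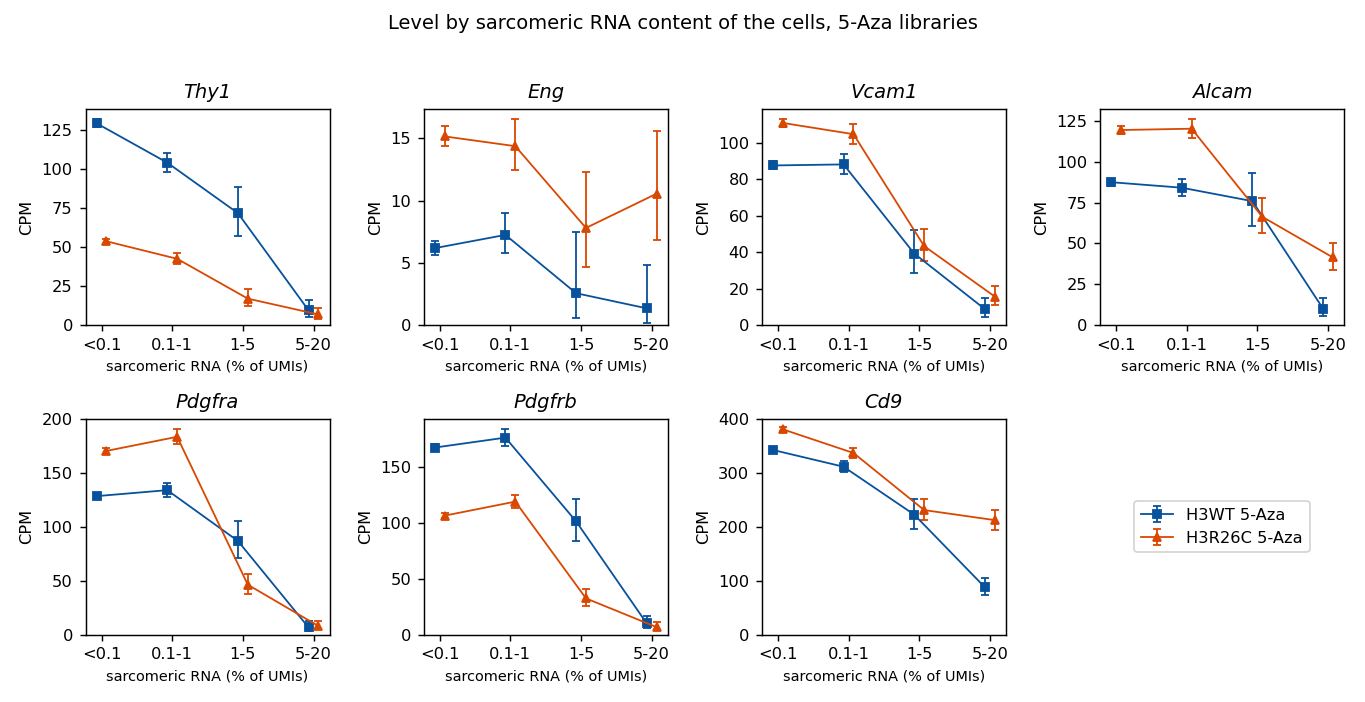
Level in CPM (vertical axis, from 0) of 7 surface genes in cells of the 5-Aza libraries, binned by the percent of their UMIs from sarcomeric genes (horizontal axis), with exact Poisson 95% intervals. All 7 are lower at 5% to 20% than under 0.1%, with Pdgfra at 6.71 CPM and 8.03 CPM in the last bin.

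The matrix genes fell with the surface genes. Of the 8 mesenchymal matrix genes, 7 were lower by 2-fold or more in muscle-like cells of H3WT 5-Aza and all 8 in those of H3R26C 5-Aza. Lum, a collagen-binding proteoglycan, was at 225.3 CPM in muscle-like and 914.9 CPM in other cells of H3WT 5-Aza. Of the further surface genes tested, 2 of 10 were lower and 1 higher in H3WT 5-Aza (15.3% and 9.9% of all genes), and 3 of 12 were lower and 2 higher in H3R26C 5-Aza (19% and 8.05% of all genes). A difference from the 9 members was not tested. Ly6a, a marker of progenitors, was at 267.2 CPM against 1059 CPM and at 265.0 CPM against 1640 CPM. Itgb1, an integrin chain, was at 652.0 CPM against 515.6 CPM and at 585.6 CPM against 398.6 CPM. It was within 2-fold in both libraries and so is not among the genes counted as higher. Pdgfb, a ligand of both receptors, was higher in muscle-like cells, at 10.1 CPM against 1.87 CPM in H3WT 5-Aza and 22.4 CPM against 2.38 CPM in H3R26C 5-Aza. All 10 mitotic genes were lower by 2-fold or more in muscle-like cells of both libraries, and their part in the lower levels of the surface genes was not tested.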

How the data were processed

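Single-cell RNA counts of 4 libraries, 1 per condition, were used. Cell Ranger 6.1.0 (per the file headers) and an mm10 reference were used by the authors, who deposited whole-number UMI counts without normalization. Whether intronic reads were counted is not given in the sources used here. Seurat 4 is named among the submitters' tools. No column was left unmapped to a sample.

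Cells were filtered as in the rule above, and no doublet caller was run. Barcodes kept in more than 1 library were counted and left out in an added alternative. CPM were sums over kept cells. Log2 ratios used a pseudocount of 1 CPM, and a gene counted as tested at a mean of at least 1 CPM and as called at 2-fold. Intervals (95%) were exact Poisson for CPM, exact binomial for shares and conditional exact for ratios. The scripts were tested on simulated data. The named genes were the 9 members, the genes of lists described, and up to 3 genes per member with a mean r of at least 0.2 among genes of at least 20 CPM. Acvrl1, Tgfb1, Tgfb2, Enpp1, Itga4, Cd6, Itgb7, Lama4, Pdgfc, Pdgfd, Pdgfb, Ngfr, Cd200, Lum, Ly6a and Itgb1 were picked from those lists after their values were seen. The members and lists were chosen with earlier results of these data known. Gene positions came from GENCODE M21 (99.8% of identifiers matched) and promoters from RefSeq, GRCm38.p6, where 6 of 9 members matched. Python 3.11.15, numpy 2.4.6, scipy 1.17.1, pandas 2.3.3 and matplotlib 3.10.9 were used.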

Additional observations from a re-analysis of the deposited data

Results flagged for a closer look

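With 1 library per condition, none of the differences below was tested. Vcam1 was higher with 5-Aza than with DMSO in H3WT (log2 ratio 0.29) and lower in H3R26C (-0.19), and these ratios were -0.48 apart. Cd9 was lower in H3R26C with DMSO and higher with 5-Aza, and the log2 ratios differed by 0.58.

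Some members differed between dividing and other cells, or between cells with and without a marker, in opposite directions in different libraries. Thy1 was higher in dividing cells of H3WT DMSO and lower in those of H3R26C 5-Aza, a difference of 1.01 on the log2 scale. Thy1 was lower in Enpp2-high cells of H3WT DMSO and higher in those of H3R26C 5-Aza (1.37), and Vcam1 went the other way in the same cells (0.95). Among cells with RNA of both Ly6a and Spp1, Thy1 was higher in H3WT DMSO and lower in H3WT 5-Aza (0.56), and Pdgfra was higher in H3R26C 5-Aza and lower in H3WT DMSO (0.51). Those cells made up 12.9% of H3WT DMSO, 33.6% of H3WT 5-Aza and 78.2% of H3R26C 5-Aza, so the groups compared differed between libraries. Each pair named here is the library with the highest and the one with the lowest ratio. For Thy1 in Enpp2-high cells the ratio was also below 1 in H3WT 5-Aza (0.548) and H3R26C DMSO (0.691). In dividing cells it was above 1 in both (1.12 and 1.14).

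Barcodes outside the cell filter, not used for any comparison, held Alcam at 50.6 CPM in H3WT 5-Aza and 129.5 CPM in H3R26C 5-Aza, against 1.31 CPM and 3.47 CPM with DMSO. Pdgfra in such barcodes of H3R26C 5-Aza was at 194.8 CPM, against 72.8 CPM in H3R26C DMSO.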

How the results depend on the processing

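No paired analysis was possible because only 1 library represents a condition, and leaving out a replicate was likewise not possible. Of 92 alternative counts and shares, 87 stayed within 1.5 times the main count or within the main interval. Some of these could not move. With DMSO no barcode, kept or left out, had an Nt5e UMI, so the share with Thy1, Eng and Nt5e together was 0 under every alternative. Leaving out muscle-like cells likewise changed nothing between genotypes with DMSO, where there were none. With a pseudocount of 10 CPM, 1 member in place of 2 was past 2-fold between genotypes with 5-Aza, since Eng no longer was. With muscle-like cells defined at 0.5% of sarcomeric RNA, 4 in place of 7 members were past 2-fold lower in H3WT 5-Aza, and Eng, Alcam and Cd9 no longer were. In muscle-like cells of H3R26C 5-Aza, the weakest log2 ratio of Alcam under an alternative was -0.882, within 2-fold. The share of H3R26C 5-Aza cells with Thy1, Eng and Nt5e together went from 0.0131% to 0% when thinned to 2500 UMIs or under either other cell filter, which moves 1 cell. Of 520 log2 ratios of members under an alternative, 410 shifted by less than the counting interval and no called ratio changed sign. The alternatives without cells of the Enpp2 gate and without barcodes kept in another library were chosen after seeing the data and left each count of members past 2-fold in the 4 library comparisons the same. With 1 library per condition, culture, batch and condition cannot be told apart.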
